A study of Homo sapiens with 13 samples.

Results

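The zinc-finger genes of chromosome 19 are the 240 protein-coding genes of GENCODE release 44 on that chromosome whose symbol is ZNF followed by a number, out of 20033 protein-coding genes in all and 1476 on chromosome 19. They were examined in 2 lists of open chromatin regions measured by ATAC-seq, in which a transposase inserts sequencing adaptors into accessible DNA. One list is for H82, a small cell lung cancer (SCLC) line of the NEUROD1 subtype, and the other for H146, a second SCLC line. Both lines are labelled wild type. The H82 list was built from 3 untreated libraries and 3 libraries of cells kept for 14 days in 100 nM FHD-286, an inhibitor of the SMARCA4 and SMARCA2 ATPases of the SWI/SNF remodellers, and the H146 list from 4 untreated and 3 treated libraries. Each list merges the regions of all libraries of its line and gives positions on hg38 without a signal value. Every value below is therefore 1 value per line, with no spread between replicates and no test, and untreated and treated cells cannot be told apart. Differences between the lines are descriptions of these 2 lists.

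The human genome holds a large family of genes for proteins with arrays of C2H2 zinc fingers, short modules in which a zinc ion is held by cysteines and histidines and which read DNA in tandem. Many of them also carry a KRAB box near the amino terminus, which recruits TRIM28 (KAP1) and with it histone deacetylases, the H3K9 methyltransferase SETDB1 and HP1 proteins, and their best known targets are transposable elements. They expanded by tandem duplication, most of all on chromosome 19. A KRAB box pattern was found in 201 of the 240 translated canonical transcripts, and the proteins held a median of 12 fingers, with a maximum of 36 in ZNF208. Below, a gene without a KRAB box is one of the 39 in which the pattern had no match, and the pattern can miss a box. With gaps of up to 500 kb between neighbouring start sites, 228 of the 240 genes fell into 10 clusters of at least 5 genes, numbered 1 to 10 along the chromosome, and 12 lay outside them. Cluster 4, between ZNF101 and ZNF254, was the longest with 37 genes in 4.46 Mb, and cluster 10, between ZNF264 and ZNF446 near the end of the long arm, held the most genes (41).

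The start sites of 5 members with a region in only 1 line or in neither are shown here because their sequence is what the accessibility calls are read against later. Each line is the 200 bases directly before the start of the canonical transcript, 5′ to 3′ on the strand of the gene, from hg38, with every CpG in capitals. None of these bases lies in an annotated exon. Among members that met this condition, those with the highest observed-to-expected CpG ratio of each class were taken. They do not stand for the rest of their class. ZNF285 (chr19:44401609-44401808, minus strand) and ZNF418 (chr19:57935403-57935602, minus strand) had a region in H82 only, ZNF729 (chr19:22286241-22286440, plus strand) in H146 only, and ZNF541 (chr19:47573149-47573348, minus strand) and ZNF154 (chr19:57709205-57709404, minus strand) in neither line.
ZNF285: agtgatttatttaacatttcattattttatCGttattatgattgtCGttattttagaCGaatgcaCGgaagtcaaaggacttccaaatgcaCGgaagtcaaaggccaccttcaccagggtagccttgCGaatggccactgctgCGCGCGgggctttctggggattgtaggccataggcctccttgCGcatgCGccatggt
ZNF418: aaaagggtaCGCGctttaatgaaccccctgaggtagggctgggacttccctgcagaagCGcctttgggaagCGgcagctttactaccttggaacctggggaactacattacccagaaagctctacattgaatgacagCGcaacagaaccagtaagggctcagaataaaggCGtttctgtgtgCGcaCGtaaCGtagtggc
ZNF729: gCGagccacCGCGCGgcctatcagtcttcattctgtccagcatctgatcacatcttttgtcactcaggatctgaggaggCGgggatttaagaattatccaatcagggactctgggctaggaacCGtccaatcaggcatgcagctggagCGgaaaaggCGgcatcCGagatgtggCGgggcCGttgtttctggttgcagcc
ZNF541: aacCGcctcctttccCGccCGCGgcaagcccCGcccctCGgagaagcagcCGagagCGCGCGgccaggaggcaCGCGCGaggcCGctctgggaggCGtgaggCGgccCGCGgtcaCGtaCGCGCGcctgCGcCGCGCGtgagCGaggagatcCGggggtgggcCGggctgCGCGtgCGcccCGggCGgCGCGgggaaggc
ZNF154: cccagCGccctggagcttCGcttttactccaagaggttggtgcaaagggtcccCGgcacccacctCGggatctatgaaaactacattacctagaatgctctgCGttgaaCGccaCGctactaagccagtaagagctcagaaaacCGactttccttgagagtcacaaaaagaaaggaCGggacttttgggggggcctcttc
The ZNF541 stretch held 36 CpGs at a GC content of 80.0%, ZNF285 and ZNF729 held 11 each and ZNF418 and ZNF154 held 9 each.

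Most of these genes had an open region at their start in both lines. A region lay within 1 kb of the annotated 5′ end of the gene in both lines for 208 of 240 members (86.7%, against 75.4% of all 20033 genes), for H82 alone in 8 (3.33%, against 5.10%), for H146 alone in 2 (0.833%, against 1.86%) and for neither line in 22 (9.17%, against 17.7%). Of the ZNF genes of other chromosomes, 217 of 236 had a region in both lines (91.9%) and 13 in neither (5.51%). Of the KRAB genes of other chromosomes, whatever their symbol, it was 115 of 144 (79.9%) and 26 (18.1%), and of the 201 KRAB members 172 (85.6%) and 19 (9.45%). For 44 members the canonical transcript starts over 1 kb from the 5′ end of the gene. Counted at the canonical start, 222 members had a region in both lines (92.5%, against 77.8% of all genes), 7 in the H82 list alone (2.92%, against 4.74%), 2 in the H146 list alone (0.833%, against 1.69%) and 9 in neither (3.75%, against 15.8%).

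**Figure D1:**
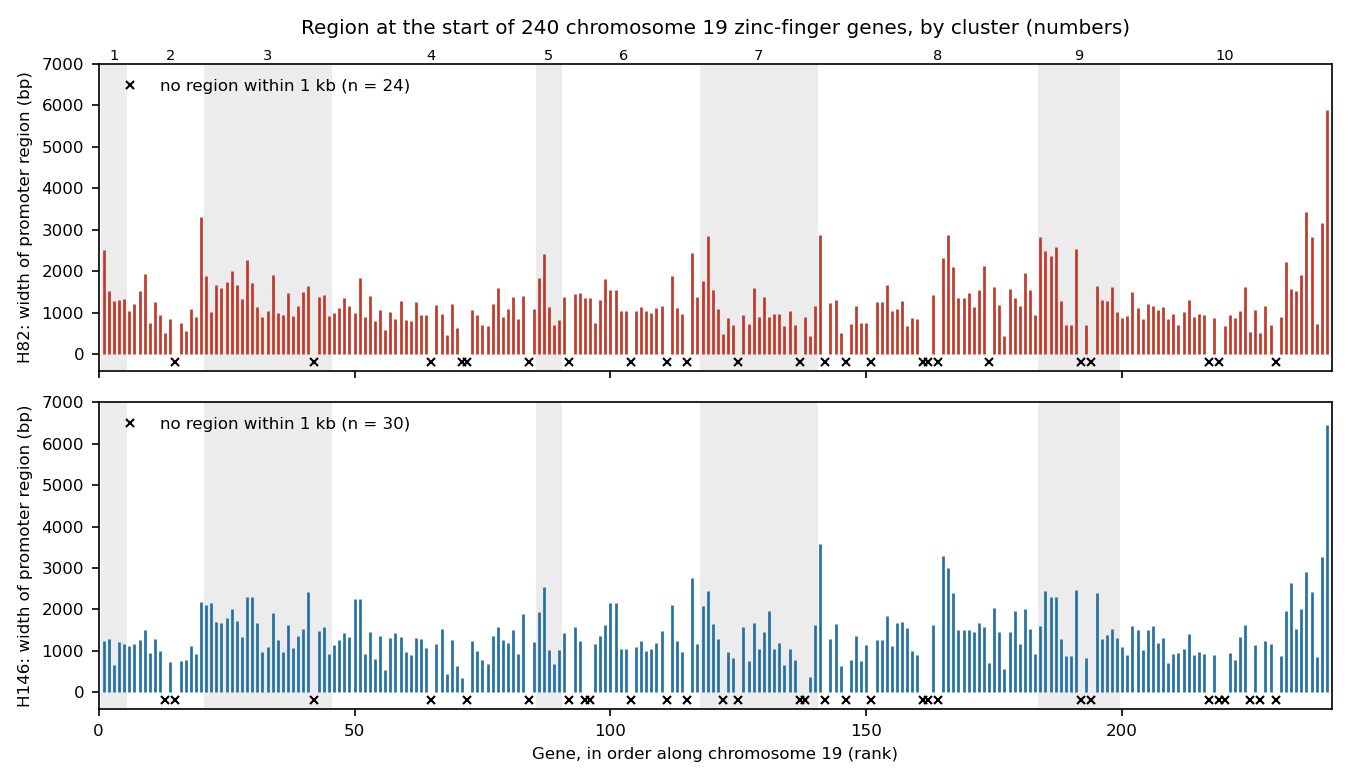
Width in bp of the widest region within 1 kb of the start of each of the 240 genes, in order along chromosome 19, in H82 (top) and H146 (bottom); grey and white bands separate the clusters numbered at the top and crosses mark genes with no region. Genes without a region number 24 in H82 and 30 in H146 and are scattered over the clusters; the tallest line, at the right end, is ZNF446, at 5892 bp in H82 against 6457 bp in H146.

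The 8 genes with a region in H82 only all matched the KRAB pattern, as did 201 of the 240 members, and were spread over 4 clusters. In cluster 2, ZNF177 had a region of 499 bp in H82 and none in H146. In cluster 6, ZNF382 and ZNF529 shared a single H82 region of 1357 bp, which therefore counts for both genes. The start of the canonical ZNF529 transcript, 31.984 kb away, had a region in both lines, of 1213 bp in H82 and 1350 bp in H146. In cluster 7, the H82 regions measured 883 bp at ZNF285 and 491 bp at ZNF404, and the canonical start of ZNF404 had a region in neither line. In cluster 10, they measured 679 bp at ZNF671, 540 bp at ZNF814 and 520 bp at ZNF418. Apart from the shared one, these regions were narrower than the H82 median of 1153.5 bp for members open in both lines. At the canonical start ZNF577 (cluster 8) joined the set, with a region of 515 bp in H82.

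The 2 genes with a region in H146 only were ZNF729 in cluster 4, with 350 bp, and ZNF415 in cluster 8, with 715 bp. ZNF729 encodes one of the longest finger arrays of the family, with 34 fingers in 1252 residues. Both genes were called the same way at the canonical start.

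Of the 22 members with no region at the 5′ end of the gene in either line, 14 had one in both lines at the canonical start, 1 in H82 only (ZNF577) and 7 in neither. The 14 were ZNF709 in cluster 3, ZNF429 and ZNF98 in cluster 4, ZNF565, ZNF420 and ZNF540 in cluster 6, ZNF155 and ZNF112 in cluster 7, ZNF614 and ZNF701 in cluster 8, ZNF444 and ZNF583 in cluster 9, ZNF211 in cluster 10, and ZNF546 outside the clusters. Of these 14, ZNF98 had the most distant pair of starts, 110.139 kb apart, with a region of 1214 bp in H82 and 1431 bp in H146 at the canonical one. The 7 genes closed by both definitions were ZNF560 in cluster 2, ZNF534 and ZNF578 in cluster 8, ZNF154 and ZNF135 in cluster 10, and ZNF536 and ZNF541 outside the clusters. ZNF536 is a brain-expressed C2H2 protein and ZNF541 a germ-cell protein; neither matched the KRAB pattern. ZNF676 was open in both lines at the 5′ end, with the same 636 bp, and had no region at its canonical start 18850 bp away.

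The CpG content of closed members depended on which start was used. At the 5′ end of the gene, 10 of the 22 closed members had an observed-to-expected CpG ratio of at least 0.6, with a median of 0.47 against 0.70 in the 208 open in both lines. Among all protein-coding genes these medians were 0.22 and 0.75. The ratio is the number of CpGs in the 500 bp to either side of the start relative to the number its C and G content gives. At the canonical start it had a median of 0.71 in the 222 members open in both lines and 0.73 in the 9 closed in both. Among all protein-coding genes the corresponding medians were 0.77 and 0.22. A ratio of at least 0.6 was found in 6 of the 9 closed members, namely ZNF560, ZNF541, ZNF534, ZNF578, ZNF154 and ZNF135, whereas 9.12% of the 3159 closed genes of the genome reached it. ZNF541 had the highest value of the 9 (0.82) and ZNF676 the lowest (0.20). All 7 members with a region in H82 only had a ratio above the median of 0.34 of the 950 genes of that class, between 0.58 in ZNF177 and 0.78 in ZNF382. With 9 and 7 genes these are values of single genes. The printed starts of ZNF541 and ZNF154 show 2 of them, picked for their high ratio.

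**Figure D2:**
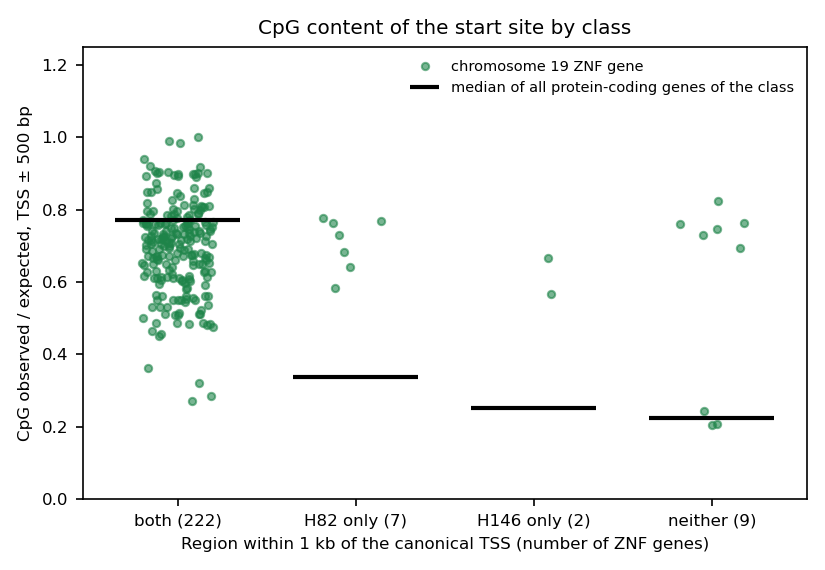
Observed-to-expected CpG ratio within 500 bp of the canonical start for each of the 240 genes (green points, spread sideways for legibility), by the lines in which a region lay within 1 kb; black bars are the medians of all protein-coding genes of each class. In the class without a region in either line 6 of 9 points lie above 0.6, over a median of 0.22 for all genes of that class.

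Most promoter regions of these genes were somewhat wider in H146 than in H82. Width is that of the widest region with a base within 1 kb of the 5′ end of the gene. Among the 208 members open in both lines H82 had a median of 1153.5 bp (quartiles 927.25 and 1526.75) and H146 one of 1290.5 bp (1013.0 and 1634.75). The region was wider in H146 for 158 members (76.0%, against 52.1% of the 15097 genes of the genome open in both lines), wider in H82 for 42 (20.2%, against 44.0%) and of equal width for 8. The step was small, with a median log2 ratio of H82 to H146 width of -0.10, equal to a 1.07-fold median in favour of H146, and a median of -0.01 over all genes. Large ratios were fewer. Of the 208 members, 4 were at least 1.5 times as wide in H82, where 1981 of the 15097 genes open in both lines were (13.1%). At least 1.5 times as wide in H146 were 12 of the 208 members, and 1054 of the 15097 genes (6.98%).

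The same count was 454 wider in H146 against 452 wider in H82 among the 943 other genes of chromosome 19 open in both lines, 123 against 90 for ZNF genes of other chromosomes, and 65 against 46 for KRAB genes of other chromosomes. Within the family, 138 of 172 members with a KRAB box were wider in H146 (80.2%) and 20 of 36 without one (55.6%). The KRAB split was made after the values had been seen. The regions of members were narrower than those of all genes, with medians of 1831.0 bp (H82) and 1732.0 bp (H146), so the count was also taken within classes of mean width. Of members averaging 1000 to 1500 bp, 74 of 87 were wider in H146 (85.1%), against 56.9% of the 3138 other genes of that width. Below 1000 bp it was 38 of 58 (65.5%) against 55.2%, from 1500 to 2500 bp 40 of 53 (75.5%) against 50.7%, and above 2500 bp 6 of 10 (60.0%) against 47.5%.

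The difference lay on both sides of the start. For the 200 members whose start base lay inside a region in both lines, the region reached a median of 461.5 bp upstream and 653.0 bp downstream in H82, and 511.0 bp and 750.5 bp in H146. It reached further upstream in H146 for 124 members and in H82 for 36, and further downstream in H146 for 124 and in H82 for 34. Over the 13510 genes of the genome with the start base in a region in both lines, 6278 reached further upstream in H146 and 5124 in H82, and 6593 against 4915 further downstream. The 31 members without a KRAB box were even upstream, 13 against 13, and 15 against 9 downstream, with a median difference of 0.0 bp on both sides.

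The counts varied between clusters. In cluster 3, between ZNF653 and ZNF490, 23 of 24 promoter regions were wider in H146 and none wider in H82. In cluster 4 it was 28 of 34, with 2 wider in H82, and in cluster 8, between ZNF175 and ZNF331, 28 of 33, with 3 wider in H82. Clusters 6 and 7 had 16 of 19 each. In cluster 10 the count was 24 of 35, with 10 wider in H82. Cluster 9, between ZNF628 and ZNF835, which holds 10 of the genes without a KRAB box, had 6 of 14 wider in H146 and 8 wider in H82. Cluster 1, the 5 KRAB genes between ZNF554 and ZNF77 at the start of the short arm, went the other way throughout: ZNF554 measured 2511 bp in H82 and 1242 bp in H146, ZNF555 1524 and 1293 bp, ZNF556 1289 and 667 bp, ZNF57 1300 and 1209 bp, and ZNF77 1320 and 1165 bp.

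**Figure D3:**
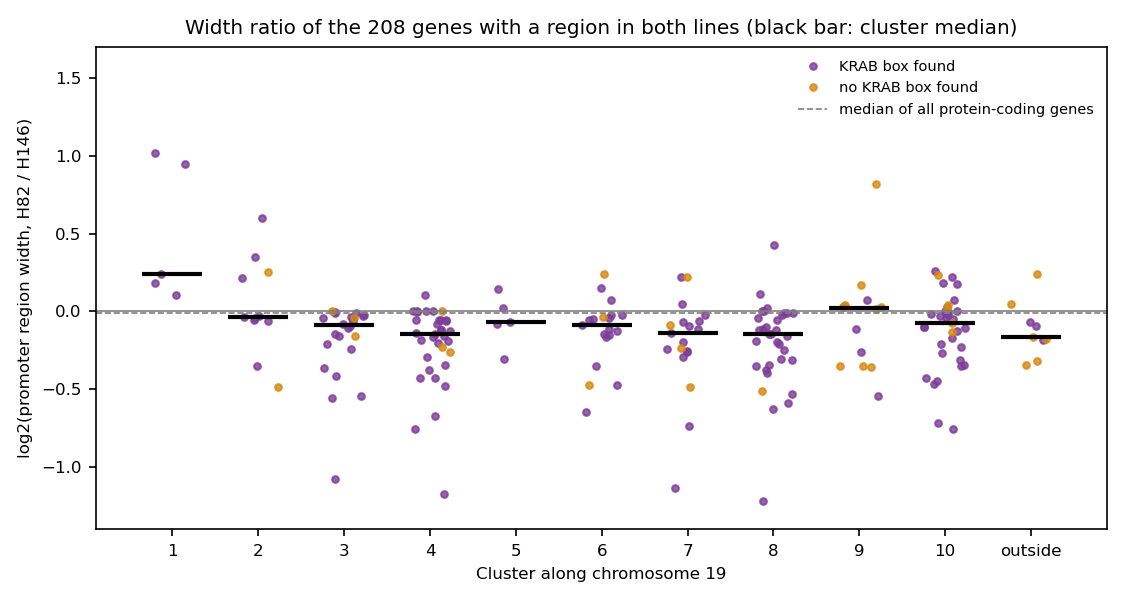
Log2 ratio of promoter region width, H82 over H146, for the 208 genes with a region in both lines, by cluster; each point is a gene, coloured by whether a KRAB box was found, black bars are cluster medians and the dashed line is the median of all protein-coding genes (-0.01). Cluster medians run from 0.24 in cluster 1 to -0.15 in cluster 8, and all points of cluster 1 lie above 0 while none of cluster 3 does.

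The largest single ratios were in both directions. ZNF610 in cluster 8 had a region of 672 bp in H82, against 1563 bp in H146 (log2 ratio -1.22). ZNF253 in cluster 4 measured 999 and 2251 bp (-1.17), and its region started at nearly the same distance upstream in both lines (298 and 349 bp) but ran 700 bp into the gene in H82 and 1901 bp in H146. ZNF225 in cluster 7 measured 891 and 1960 bp (-1.14). It had 2 regions within 1 kb in H82, over a stretch that is 1 region in H146. Toward H82 the largest were ZNF554 (1.02) and ZNF556 (0.95) of cluster 1 and ZNF628 of cluster 9, at 2818 bp in H82 against 1596 bp in H146 (0.82).

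Among the widest promoter regions, those of ZNF446, ZNF837 and ZNF324 lay in cluster 10, near the end of the long arm. ZNF446, a zinc-finger protein with 3 fingers and no KRAB match, had a region of 5892 bp in H82 and 6457 bp in H146, which covers most of its gene. In both lines this region also overlaps the neighbouring genes ZNF324 and SLC27A5. ZNF837 had 3419 and 2902 bp, and ZNF324 3158 and 3272 bp. In cluster 8, ZNF611 had 2882 and 2990 bp and ZNF83 2308 and 3286 bp. ZNF846 in cluster 2 had 3298 and 2178 bp, and ZNF296, outside the clusters, 2872 and 3581 bp. These widths are at the 5′ end of the gene, and the ranking depends on the start used. At the canonical start of ZNF846, 24.442 kb away, the region measured 1163 bp in H82 and 1550 bp in H146. At their canonical starts ZNF580 and ZNF581 had 6280 bp in H82 and 5316 bp in H146.

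KRAB proteins with well studied targets were open in both lines. ZNF91, which represses SVA retrotransposons, had a region of 898 bp in H82 and 1253 bp in H146. ZNF93, which represses older L1 elements, had 1846 and 2264 bp. ZNF274, which binds the 3′ ends of zinc-finger genes themselves and recruits SETDB1 there, had 2218 and 1967 bp.

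The cluster 4 promoters are close copies of each other, and their regions still differed in width. The following stretches are shown because they place an open gene beside the member with a region in H146 only and the member with the largest width ratio of the cluster. The ZNF100 line gives the 100 bases before its start (chr19:21767580-21767679, minus strand), with the word CTTCCGG in capitals. The ZNF729 line (chr19:22286318-22286418, plus strand) and the ZNF253 line (chr19:19865758-19865873, plus strand) give the stretch that aligned to it within 200 bases of their own start, with capitals where the base equals that of ZNF100.
ZNF100: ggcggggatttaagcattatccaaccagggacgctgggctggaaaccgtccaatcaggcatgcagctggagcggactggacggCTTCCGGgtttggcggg
ZNF729: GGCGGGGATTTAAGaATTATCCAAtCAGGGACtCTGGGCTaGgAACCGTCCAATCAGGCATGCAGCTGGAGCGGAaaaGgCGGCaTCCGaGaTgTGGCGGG
ZNF253: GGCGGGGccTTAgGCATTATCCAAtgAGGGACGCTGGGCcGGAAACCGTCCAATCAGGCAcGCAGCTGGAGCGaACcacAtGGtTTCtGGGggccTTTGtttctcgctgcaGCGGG
ZNF729 matched ZNF100 at 88 of the 100 bases and ZNF253 at 86. Counting ZNF100 itself, 30 of the 37 genes of cluster 4 matched at 70 or more bases, the other 29 at 77.0 to 90.0% identity. No member outside the cluster reached that limit of 70, which was set after the values had been seen. Some came close to it, with ZNF136 of cluster 3 highest at 69.0% and ZNF419 of cluster 10 at 68.0%. Most members outside the cluster lay far lower. Likeness to ZNF100 was therefore not confined to cluster 4. Of the 30, ZNF729 alone had a region in 1 line. The canonical promoter regions of the other 29 spanned 450 to 1846 bp in H82 (median 1003.0) and 450 to 2264 bp in H146 (median 1253.0), and 23 were wider in H146, 3 in H82 and 3 equal. ZNF208 had 450 bp in both lines, at the same positions. A median of 2.22% of the 50-base words around the starts of these 30 genes occurred again on chromosome 19 (highest 13.9%), and the part of reads from like copies in the widths was not tested.

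**Figure D4:**
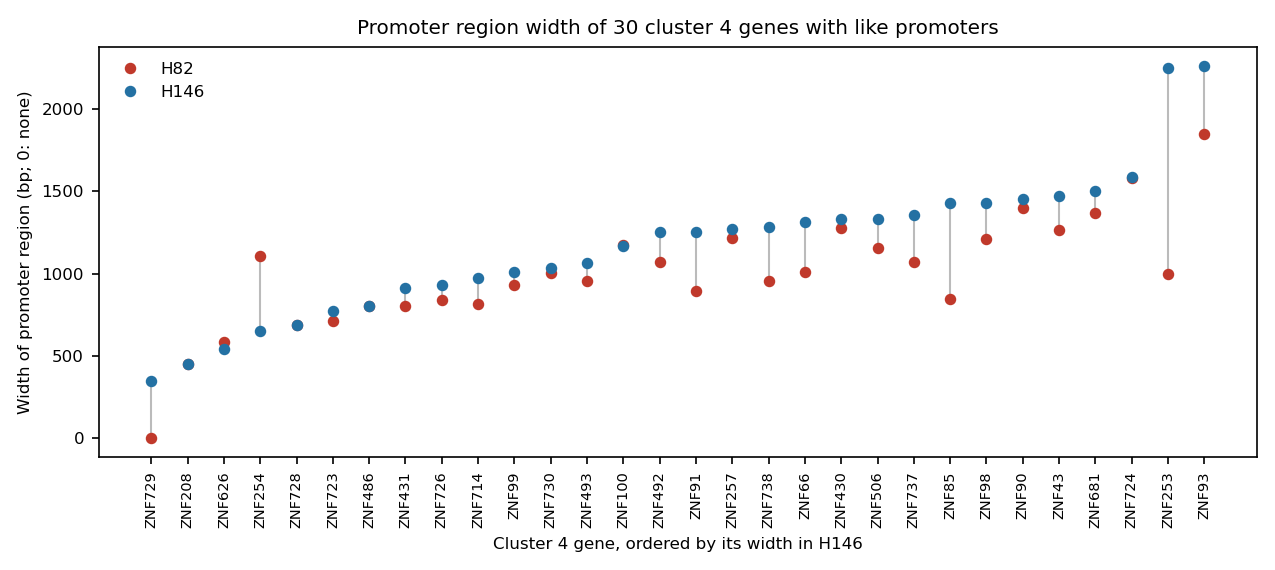
Width of the region within 1 kb of the canonical start in H82 (red) and H146 (blue) for the 30 cluster 4 genes with like promoters, ordered by width in H146; a grey line joins the values of a gene, and a value of 0 means no region. ZNF729 has a region in H146 only (350 bp), ZNF253 shows the largest gap (999 and 2251 bp) and ZNF254 the largest in the other direction (1108 and 651 bp).

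The word CCGGAAG, the core that ETS-family factors such as GABPA read, was searched on both strands from 250 bases before to 50 after the 5′ end of the gene. It occurred in 97 members (40.4%), against 11.9% of all protein-coding genes, 13.3% of the other genes of chromosome 19 and 28.4% of ZNF genes elsewhere. Its nearest copy lay a median of 17.0 bp from the start, and 89 of the 97 had it within 100 bp. It was found in 23 of 37 genes of cluster 4, 23 of 39 of cluster 8, 23 of 41 of cluster 10, 3 of 25 of cluster 3 and none of the 5 of cluster 1. Because cluster members are copies of each other, these genes are not independent cases. It occurred in 70 of the 158 members wider in H146 (44.3%) and 15 of the 42 wider in H82 (35.7%). Outside cluster 4 an example is the stretch before ZNF132 in cluster 10 (chr19:58440154-58440253, minus strand), which was open over 722 bp in H82 and 846 bp in H146, with the word again in capitals.
ZNF132: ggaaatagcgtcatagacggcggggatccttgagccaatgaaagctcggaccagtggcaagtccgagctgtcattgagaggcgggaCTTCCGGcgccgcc
The CCAAT word of NF-Y was present in 126 members (52.5%, against 35.9% of all genes and 37.0% of the other genes of chromosome 19) and the GGGCGG box of the SP factors in 149 (62.1%, against 52.4% and 59.2%). For the E-box CAGATG that NEUROD1 can bind, the share was 12.9%, beside 13.0% of all genes. A match is a stretch of letters and not a measured binding site.

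Beyond their starts these genes held few open regions. No region fell in the gene body more than 1 kb from the 5′ end for 124 of 240 members in H82 (51.7%, against 16.7% of the 19558 genes with such a body) and for 107 in H146 (44.6%, against 20.3%). Their genes were about as long as others, with a median of 25452.5 bp against 27471.0 bp for all genes. Among KRAB members the share without a body region was 55.2% in H82 and 48.8% in H146, and among KRAB genes of other chromosomes 39.6% and 43.8%. Among members without a KRAB match the share was 33.3% and 23.1%, and among ZNF genes of other chromosomes 30.6% and 33.2%. A high share was thus found in part in like genes elsewhere. The members with the highest body cover were 3 genes with no KRAB match: ZNF446 (86.8% of the body covered in H82, 82.8% in H146), ZNF581 (71.8% and 66.8%) and ZNF580 (63.5% and 57.3%). ZNF580 and ZNF581 share 1 promoter region at the 5′ end in each line. The body cover of all 3 genes counts the region at their canonical start. That start lay 2335 bp (ZNF446), 5986 bp (ZNF580) and 8190 bp (ZNF581) from the 5′ end. For ZNF580 and ZNF581 the region there measured 6280 bp (H82) or 5316 bp (H146).

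The exon that encodes the fingers was almost never open in KRAB members. In these genes the fingers usually lie in a single long last coding exon, and the longest coding exon of the canonical transcript was used for it, at a median of 17.923 kb from the start and nowhere closer than 3149 bp. A region touched it in 1 of 201 KRAB members in H82 (ZNF324) and in 2 in H146 (ZNF324 and ZNF8). Over the 16444 genes of the genome with a longest coding exon more than 1 kb from the start, the share was 21.7% in H82 and 17.8% in H146. Among the 144 KRAB genes of other chromosomes, 16 were touched in H82 (11.1%) and 12 in H146 (8.33%). The exons of all genes are shorter, with a median of 287.0 bp against 1556.0 bp in KRAB members. In the 39 members without a KRAB match, 13 were touched in H82 and 13 in H146, and those of ZNF575, ZNF580 and ZNF581 were covered entirely in both lines. Distance is counted here from the 5′ end of the gene. The canonical starts of ZNF580 and ZNF581 lie 5986 and 8190 bp from it, so the wide region there can be the one on their exons. How many touched exons lie in the region of a canonical start was not tested. Repeated 50-base words made up a median of 0.43% of the KRAB exons and over 20% in 18 of them, and their part in the result was not tested.

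**Figure D5:**
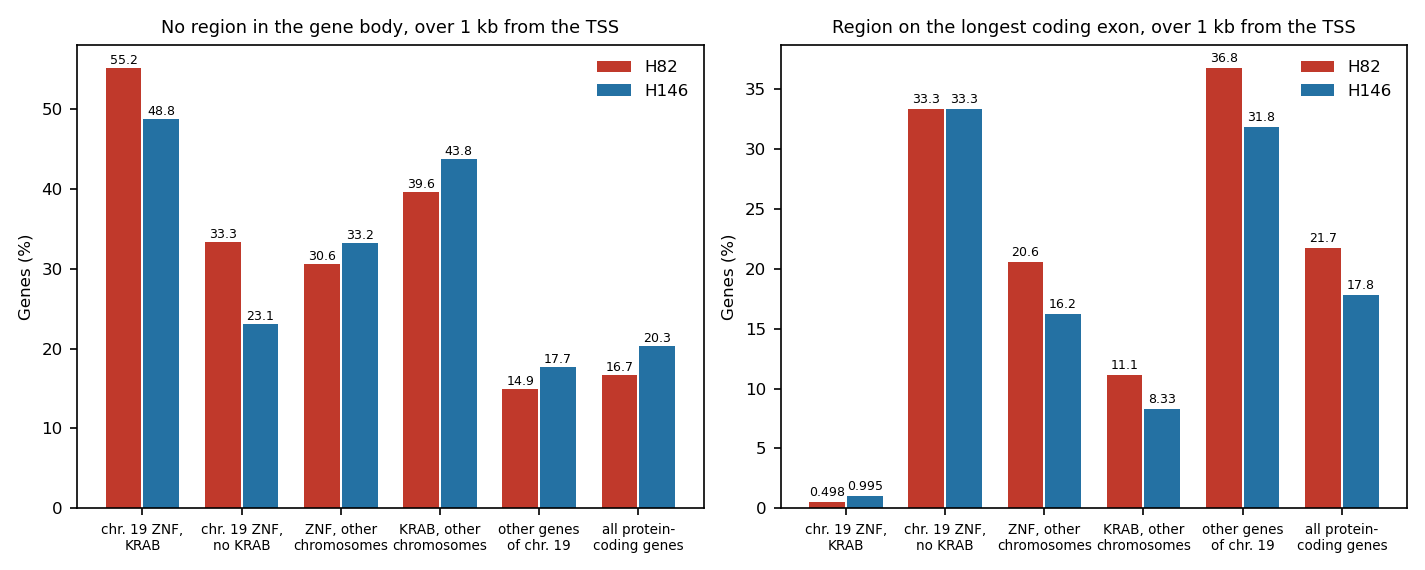
Share of genes with no region in the gene body more than 1 kb from the start (left) and share with a region on the longest coding exon where it lies more than 1 kb from the start (right), for 6 gene sets in H82 (red) and H146 (blue). Chromosome 19 ZNF genes with a KRAB box stand at 55.2% and 48.8% on the left and at 0.498% and 0.995% on the right, and those without one at 33.3% in both lines on the right.

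Counted over whole clusters, regions were sparser than on the rest of the chromosome. The 10 clusters together held 51.3 regions per Mb in H82 and 54.9 in H146, against 122.6 and 102.1 on the rest of chromosome 19. Density varied between clusters, from 30.4 per Mb in H82 and 28.0 in H146 in cluster 2 to 89.5 and 91.2 in cluster 9. The log2 ratio of H82 to H146 counts was -0.10 in the clusters, 0.26 on the rest of the chromosome and 0.25 over the genome, where the H82 list has 206927 regions and the H146 list 174093. Cluster 3 had the lowest ratio (-0.35, from 62 regions in H82 and 79 in H146), followed by cluster 4 (-0.24, from 173 and 205), and cluster 1 the highest (0.29, from 11 and 9). The 2 lists come from different numbers of libraries, and read depth is not given in them.

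The partners of KRAB proteins were open in both lines. Of 14 cofactor genes, 13 had a region at the 5′ end in both lines, as did 75.4% of all protein-coding genes, and HDAC2 only at its canonical start. TRIM28, itself on chromosome 19, had a region of 2707 bp in H82 and of 2707 bp in H146. SETDB1 had 1018 and 908 bp, ATF7IP, which stabilises it, 872 and 883 bp, and the HP1 genes CBX1, CBX3 and CBX5 1585 and 1540 bp, 2812 and 3200 bp, and 2087 and 2261 bp. Of the HUSH complex, TASOR had 1243 and 1358 bp, MPHOSPH8 1401 and 1483 bp and PPHLN1 1827 and 1896 bp, and MORC2, which acts with it, 1577 and 1460 bp. The remodeller subunits CHD3 and CHD4 had 4891 and 4852 bp and 3556 and 4143 bp. HDAC1 differed most, with 2273 bp in H82 and 1032 bp in H146.

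Of the markers reported to check the labels, NEUROD1 had a promoter region in H82 only (7865 bp) and the leukocyte gene PTPRC none in either line. INSM1, SYP, CHGA and NCAM1, which mark neuroendocrine cells, and POU2F3, YAP1, COL1A1, PECAM1 and VIM had a region in both lines, so the presence of a promoter region alone separates these lines from other cell types only in part.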

How the data were processed

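ATAC-seq of H82 and H146 cells was processed by the authors. Per the study's methods and the submitters' processing notes, reads were trimmed (Trim Galore 0.4.4) and aligned to hg38 (Bowtie2 2.3.4, default settings), duplicates were removed with Picard, regions were called per sample with MACS2, blacklisted regions were dropped, and regions within 500 bp were merged over the samples of a line. The MACS2 version and threshold are not given in the sources used here. The deposited lists hold only chromosome, start and end, without counts, a signal or a score; depth is unknown, the effect of FHD-286 was not analysed here, and merging can join neighbouring regions into wider ones. Per the methods, 3 H146 controls were sequenced apart from the fourth control and the 3 treated samples, which cannot be separated here.

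Members, lists and tests were chosen with earlier results of these data known. Promoters were taken at the GENCODE release 44 gene 5′ end with 1 kb to either side (Python 3.11.15, numpy 2.4.6; the member classes matched those of bedtools 2.31.1). KRAB boxes and fingers were found by amino acid patterns in translated canonical transcripts, promoter likeness by alignment (Biopython 1.88), and repeats as 50-base words found again on chromosome 19. Sequences are from hg38, and the scripts were tested on simulated data. Named by rule were genes with a promoter region in 1 line or in neither, the 5 widest promoters and 3 highest body covers per line, the 3 largest width ratios each way, ZNF274, ZNF91 and ZNF93, and the cofactor and comparison lists. Others named (ZNF100, ZNF132, ZNF208, ZNF254, ZNF676, ZNF575, ZNF8 and the rest of cluster 1) were chosen after their values were seen. Alternatives changed the window, the start site, the region minimum, the member list, the body definition and the cluster gap. One marker gene is not reported here.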

Additional observations from a re-analysis of the deposited data

How the results depend on the processing

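Of 123 alternative values, 110 stayed within 1.5 times the reported count or width, or within 0.1 of the reported log2 ratio. The limit of 0.1 is about as wide as the ratio itself (-0.0995), so staying within it says little. Only the log2 ratio could be scored as changing direction, and it lay between -0.1102 and -0.0942 under all alternatives. The share of promoters wider in H146 lay between 75.0 and 80.2% under all 12 alternatives, the highest with KRAB members only, which was chosen after seeing the data. The 13 others were these. The 22 members without a promoter region became 9 at the canonical start, 4 at any annotated start and 13 with 5 kb to either side. The members without a gene body region (124 in H82, 107 in H146) became 7 and 9 over the whole gene, which includes the promoter, and 1 and 6 with 10 kb added to either side. The upper quartile of body cover was 2.21% in H82 and 2.85% in H146, and became 1.45% and 1.85% at the canonical start, 6.16% and 6.56% over the whole gene, and 6.82% and 7.27% with 10 kb added. These body settings include or leave out promoter regions by construction. No paired analysis was possible because each line has 1 pooled list and no result comes from a test. Leaving out single replicates was not possible for the same reason. Without depth, a missing region cannot be told from one below the threshold of the caller.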

Other observations

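Zinc-finger genes of chromosome 19 with other names were also examined. Of 19 genes with the prefixes ZFP, ZSCAN, ZBTB, ZKSCAN, ZIK or ZIM, or PEG3, 11 had a region at the 5′ end in both lines, ZSCAN1 in H82 only (520 bp), ZSCAN18 in H146 only (200 bp), and 6 in neither: ZSCAN4, ZSCAN5B and ZSCAN5C, ZIM3, and the imprinted neighbours PEG3 and ZIM2. Of the 11, 5 were wider in H146 and 5 in H82. The widest were ZFP36, which encodes an RNA-binding protein with another type of finger, with 11159 bp in H82 and 10859 bp in H146, and ZBTB7A, with 10920 and 4256 bp.

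The widest region inside the clusters was not at a gene. In cluster 6 a stretch at chr19:36268594-36309903 was a single region of 41.3 kb in H146, of which 97.5% was also covered in H82, as regions of 35.8 and 4.47 kb. No protein-coding gene overlaps it, and 96.4% of its 50-base words occur again on chromosome 19, against 9.25% for the chromosome as a whole; the part of repeated sequence in these regions was not tested.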
